A study of Homo sapiens with 8 samples.

Results

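The genes described are 10 plasma membrane amino acid transporters: SLC7A11, SLC7A5, SLC3A2, SLC7A1, SLC7A6, SLC1A5, SLC1A4, SLC38A1, SLC38A2 and SLC6A9. They were taken by symbol from a table of 25435 genes, all 10 were found, and all 10 were among the 13213 genes that passed the filter on low counts. The table holds mRNA sequencing read counts from HGC27, an established human gastric carcinoma line that the labels describe as lacking p53. One group overexpressed GFP as the control, and the other 3 groups overexpressed p53 with a single substitution in its DNA-binding domain, R175H, R248Q or R273H. Each of the 4 groups had 2 libraries. All groups share the parental line and growth in alpha-MEM, and no source used here names the vector, its promoter, the time of expression, or whether cells were cloned or pooled. The series title names knockout and knockdown of p53, whereas each sample's label names overexpression. The labels do not say whether the 2 libraries of a group came from separate cultures, so p-values measure only the spread between these libraries.

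Amino acids cross the plasma membrane through carriers that differ in substrate and in the force that drives them. SLC7A11 is the light chain of system xc-, which takes up cystine in exchange for glutamate and feeds glutathione synthesis. It works only when joined to the heavy chain SLC3A2 (4F2hc, CD98), which also carries SLC7A5 (LAT1, leucine and other large neutral amino acids) and SLC7A6 (y+LAT2, exchange of arginine for neutral amino acids) to the cell surface. SLC7A1 (CAT1) takes up arginine and lysine without a heavy chain. SLC1A5 (ASCT2) and SLC1A4 (ASCT1) are sodium-dependent exchangers of neutral amino acids, including glutamine for the former and serine for both. SLC38A1 (SNAT1) and SLC38A2 (SNAT2) bring in glutamine and alanine together with sodium, and SLC6A9 (GLYT1) brings in glycine. Several of these genes are known targets of ATF4, the transcription factor made when cells lack amino acids.

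Promoter windows were searched because ATF4 binds a short element, called CARE, in many genes of amino acid supply. RefSeq windows on GRCh38.p14, running from 250 bases before to 50 after each annotated start, matched 9 of the 10 genes with 15 windows. The gene without a match was SLC7A11. The letters TGATGNAA on either strand were present in 3.62% of the 35116 windows of all genes and in 5 of the 15 transporter windows, 1 each for SLC1A4, SLC3A2, SLC38A1, SLC7A1 and SLC1A5. The 5 matches are shown with their surroundings, 5′ to 3′ on the strand of the gene, with the 8 matching bases in capitals. For SLC1A4 and SLC3A2 the match is on the opposite strand, so the capitals show its reverse complement.
SLC1A4 (chr2:64989381-64989410, plus strand): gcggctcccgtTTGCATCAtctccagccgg
SLC3A2 (chr11:62881725-62881748, plus strand): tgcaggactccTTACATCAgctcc
SLC38A1 (chr12:46266502-46266531, minus strand): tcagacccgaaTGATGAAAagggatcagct
SLC7A1 (chr13:29595663-29595692, minus strand): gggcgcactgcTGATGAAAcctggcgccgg
SLC1A5 (chr19:46784893-46784922, minus strand): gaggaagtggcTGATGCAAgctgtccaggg
The SLC1A4 and SLC38A1 matches span the annotated start, at positions -7 to 1 and -4 to 4. The SLC7A1 and SLC3A2 matches lie in transcribed sequence at 8 to 15 and 38 to 45, and the SLC1A5 match lies at -97 to -90 of its most downstream start. A second element was searched because NRF2, the regulator of antioxidant genes, also controls cystine uptake. Its letters TGACNNNGC were in 13.35% of all windows and in 5 of the 15 transporter windows, 1 each for 5 genes. Among these genes was SLC3A2, shown with the match at -37 to -29 in capitals (chr11:62881652-62881680, plus strand).
SLC3A2: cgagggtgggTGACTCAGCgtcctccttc
The E-box CACGTG, bound by MYC, was also searched. It was in 7.26% of all windows and, of the 15 transporter windows, in 1 each for SLC7A5 and SLC1A5. No matches of the 3 motifs overlapped. The 5 genes with the NRF2 letters were SLC3A2, SLC7A1, SLC7A6, SLC7A5 and SLC1A5, so SLC3A2, SLC7A1 and SLC1A5 held both those and the CARE letters, SLC1A5 in different windows. A match of letters is a description and not evidence of binding.

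Levels between genes were compared per kilobase of transcript in CPM, the count of a gene scaled to a fixed library total, using the length of 1 principal GENCODE 29 transcript per gene. The large neutral amino acid carrier SLC7A5 stood first with a mean of 210 CPM per kilobase over the 8 libraries (172.6 to 221.5), followed by its heavy chain SLC3A2 with 198 (178 to 229) and the glutamine exchanger SLC1A5 with 147 (136 to 155). The ranges of the first pair overlapped, and that of SLC1A5 lay below both. SLC38A1 (43.7), SLC7A1 (41.2) and SLC38A2 (40.5 CPM per kilobase) formed a middle set with overlapping ranges. SLC6A9 reached 29.4, and its range of 21.9 to 35.1 overlapped the lower end of the middle set. SLC7A6 (13.4), SLC1A4 (11.8) and SLC7A11 (11.1 CPM per kilobase) were lowest, again with overlapping ranges. The order depends on the length used: per kilobase of coding sequence SLC7A11 stood 7th, SLC3A2 4th and SLC7A5 still 1st. SLC7A11 has a transcript of 9645 nt with a coding part of 1503 nt, the longest transcript of the 10 genes.

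**Figure D1:**
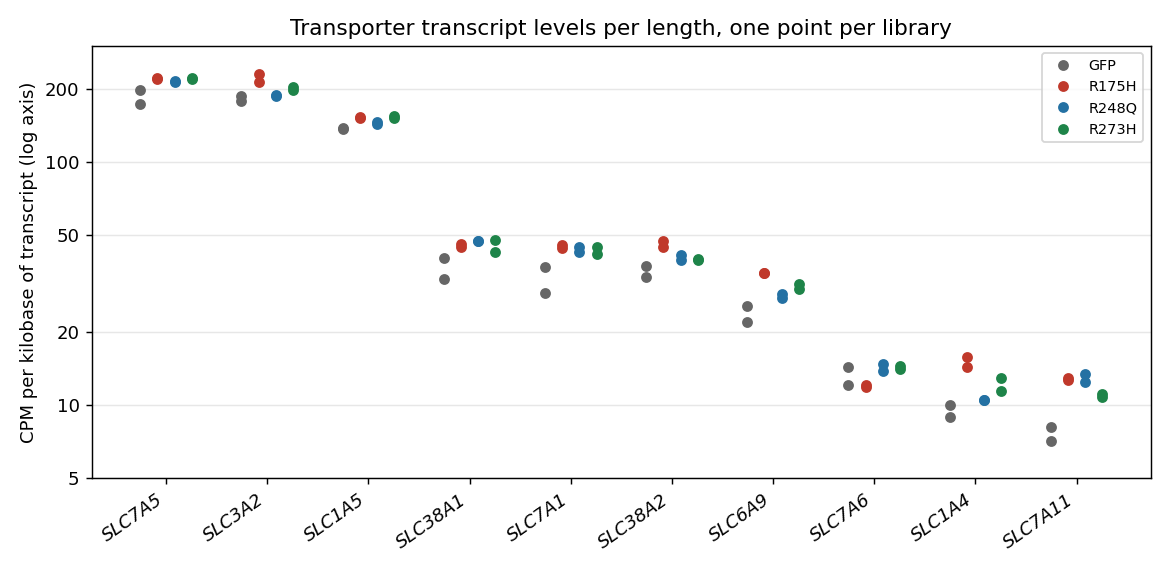
Transcript level of the 10 transporters in CPM per kilobase of transcript on a log axis, 1 point per library coloured by group. SLC7A5, SLC3A2 and SLC1A5 lie above 100 in every library, and SLC7A6, SLC1A4 and SLC7A11 lie below 20.

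The 8 libraries held 6800463 to 11788035 counts, and the least counted transporter, SLC1A4 in GFP replicate 2, had 368. Epithelial markers were near 0 (11 genes, summed level 1.01 to 4.11 CPM per library, EPCAM at most 0.295, TFF1, TFF2 and GKN1 at 0). The 8 mesenchymal markers summed to 7108 to 7908 CPM, most of it VIM, but CDH2 among them was near 0 (0.206 to 0.854 CPM). The defining markers of an epithelium were thus near absent from these cells. Blood cell markers (1.62 to 3.48 CPM, CD3E and HBB at 0) and endothelial markers (0.256 to 1.33 CPM, CDH5 and KDR at 0) were near 0 as well. Of 7 mesenchymal markers tested, 3 were higher and 1 lower in R175H against GFP, among them TWIST1 (0.44), VIM (0.20) and SPARC (-0.22, log2). In R248Q and R273H 1 was higher, COL1A1 each time (0.37 and 0.35). Of all genes tested, 6.39% were called higher and 4.59% lower in R175H, 4.88% higher in R248Q and 0.757% higher in R273H. KRT8, an epithelial keratin, averaged 1.22 (GFP), 0.390 (R175H), 3.08 (R248Q) and 1.86 CPM (R273H), called higher in R248Q (1.32) but not without GFP replicate 1. Their part in the transporter results was not tested. The 2 GFP libraries stood apart from each other. Chi-square per degree of freedom between replicates was 5.72 for GFP, against 1.21 to 1.60 for the mutants. GFP replicate 1 had fewer counts from long transcripts, with a median log2 deviation of -0.28 over 788 well-counted genes of 8000 nt or more, against -0.04 in GFP replicate 2 and 0.15 and 0.13 in the R248Q libraries. The comparisons with GFP were therefore repeated without GFP replicate 1 and with the length trend removed.

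Against GFP, most of the transporters were called higher in R175H, and fewer than that in R248Q and R273H. In bulk samples a change in the share of cells carrying a transcript and a change in its amount per cell cannot be told apart. In R175H, 8 of the 10 were called higher and none lower at an adjusted p below 0.05 (quasi-likelihood F test of edgeR, Benjamini-Hochberg over all genes tested), where 6.39% of all genes tested were called higher and 4.59% lower. In R248Q, 4 of 10 were called higher and none lower, against 4.88% and 1.44% of all genes. In R273H, 4 of 10 were called higher and none lower, against 0.757% and 0.250% of all genes. Median log2 fold changes of the 10 were 0.35, 0.20 and 0.28, beside 0.01, -0.01 and 0.00 over all genes tested. Both libraries lay above both GFP libraries for 9 of the 10 in each mutant, the exception being SLC7A6, where 26.8% (R175H), 25.0% (R248Q) and 20.1% (R273H) of all genes did so. The 3 comparisons share the same GFP libraries. Leaving out GFP replicate 1, the counts were 10 called in R175H (9 higher, SLC7A6 lower), 3 higher in R248Q and 7 higher in R273H. With the length trend removed they were 10 (9 higher, SLC7A6 lower), 5 and 8. Without R175H replicate 2 the first count was 5, without R175H replicate 1 it was 6, without either R248Q library the second was 1, without R273H replicate 1 the R273H count was 0, and without any other single mutant library it was 1. With the length trend removed, 999 of all genes were called higher and 1131 lower in R175H. These were 426 and 412 in R248Q, and 188 and 113 in R273H. Without GFP replicate 2 the median log2 fold changes of the 10 were 0.46, 0.29 and 0.32, beside 0.02, 0.00 and 0.00 over all genes.

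**Figure D2:**
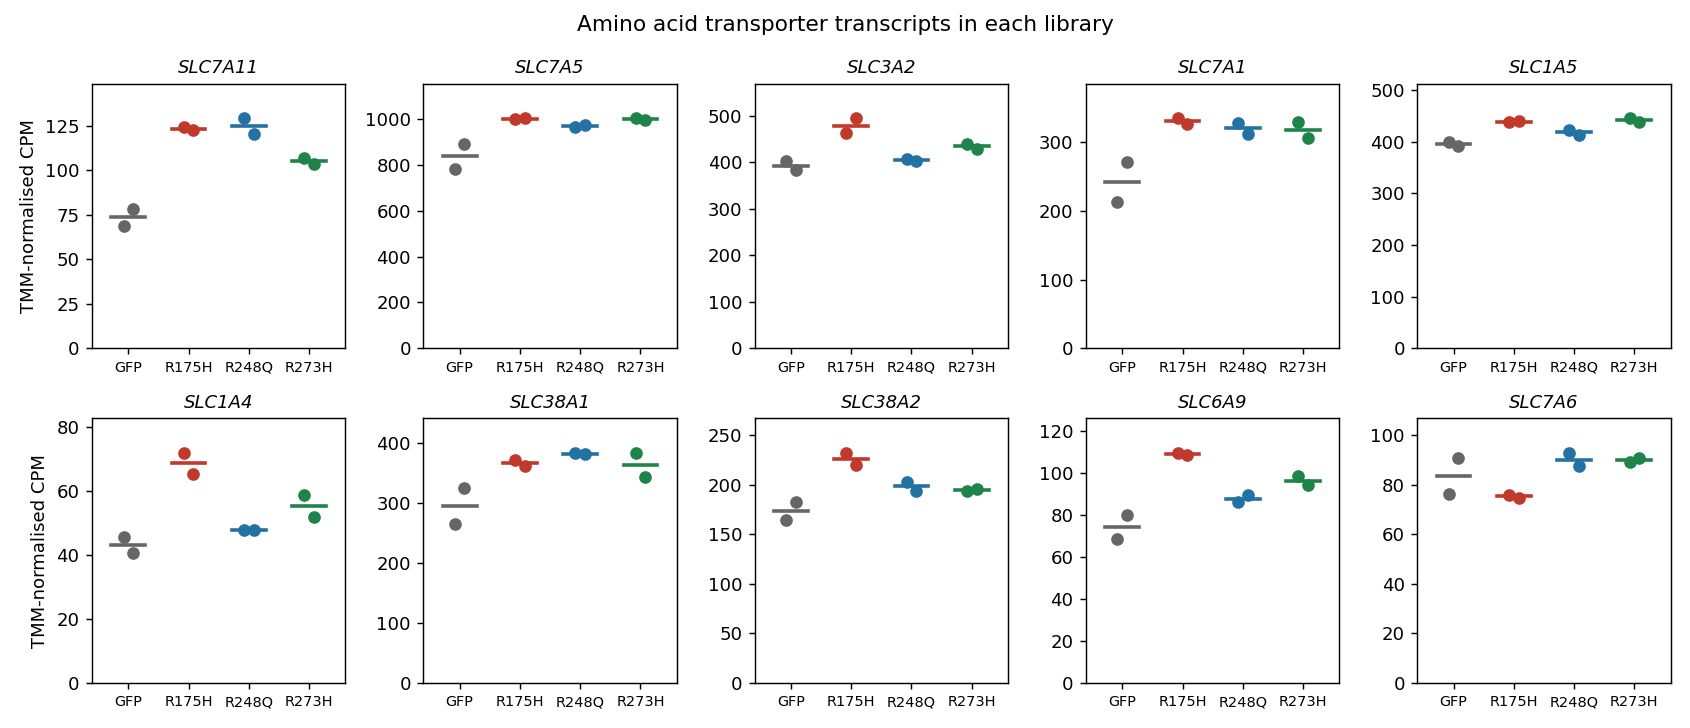
TMM-normalised CPM of each transporter (linear axes from 0, 1 panel per gene), with 1 point per library and a bar at the mean of the 2 libraries of a group. SLC7A11 lies above 100 CPM in all 6 mutant libraries and below 80 in both GFP libraries, whereas SLC7A6 is lowest in R175H.

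SLC7A11, the cystine carrier, had the largest rise of the 10 in each mutant in the main fit of all libraries. In R175H the rise of SLC1A4 was larger without GFP replicate 1 (0.74) or with the length trend removed (0.62). In R273H that of SLC1A4 was larger without GFP replicate 1 (0.44), and that of SLC6A9 with the length trend removed (0.38). The level of SLC7A11 was 69.0 and 78.1 CPM (GFP), 124.4 and 122.7 (R175H), 129.4 and 120.4 (R248Q) and 106.8 and 103.9 (R273H). All 6 mutant libraries lay above both GFP libraries, and both R273H libraries lay below the other 4 mutant libraries. On the log2 scale the change was 0.75 ± 0.07 in R175H (SE, n = 2 per group, edgeR adjusted p = 6.0e-06), 0.77 ± 0.07 in R248Q (adjusted p = 6.1e-06) and 0.52 ± 0.07 in R273H (adjusted p = 0.0031). With GFP replicate 2 as the only control, these were 0.66, 0.68 and 0.43, and with the length trend removed 0.58, 0.48 and 0.37. The calls in R175H and R248Q held under every alternative run, and the call in R273H was lost without R273H replicate 1 (0.50) and when only R273H and GFP were fitted (0.52).

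An antisense transcript, SLC7A11-AS1, overlaps the gene, and since the strand setting of the counting is not given, reads of the pair cannot be told apart with certainty. SLC7A11-AS1 had 24 and 28 counts (GFP), 34 and 37 (R175H), 54 and 74 (R248Q) and 59 and 46 (R273H), against at least 671 for SLC7A11 in any library. Its log2 fold change was 0.98 ± 0.25 in R248Q (SE, edgeR adjusted p = 0.031), and it was not called in R175H (0.70 ± 0.29) or R273H (0.72 ± 0.26, SE).

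SLC3A2, the heavy chain that SLC7A11, SLC7A5 and SLC7A6 share, rose in R175H. It had 402.2 and 383.8 CPM (GFP), 462.3 and 495.2 (R175H), 406.7 and 402.7 (R248Q) and 440.3 and 429.1 (R273H). The R175H libraries were the highest, and those of R248Q lay just above GFP replicate 1. The log2 fold change was 0.29 ± 0.05 in R175H (SE, edgeR adjusted p = 0.0033), 0.04 ± 0.05 in R248Q (adjusted p = 0.695) and 0.15 ± 0.05 in R273H (adjusted p = 0.27). Without GFP replicate 1 the values were 0.32, 0.08 and 0.18, called in R175H and R273H. With the length trend removed the R273H value was 0.18 and also called. The R175H call was lost without R175H replicate 2 (0.23) and when only R175H and GFP were fitted (0.28).

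SLC7A5, the leucine carrier, rose by a small amount in each mutant. Its level was 783.0 and 893.1 CPM (GFP), 999.7 and 1005 (R175H), 967.8 and 973.7 (R248Q) and 1005 and 996.6 (R273H). The 6 mutant libraries lay close together and above both GFP libraries, which differed from each other by more than the mutants did. On the log2 scale the change was 0.26 ± 0.06 in R175H (SE, edgeR adjusted p = 0.0098), 0.21 ± 0.06 in R248Q (adjusted p = 0.0395) and 0.26 ± 0.06 in R273H (adjusted p = 0.044). Against GFP replicate 2 alone the values were 0.17, 0.12 (not called) and 0.16. The R175H call was lost without either R175H library (0.26 both times) and when only R175H and GFP were fitted (0.25). The R248Q call was lost with DESeq2 (0.21) and when only R248Q and GFP were fitted (0.21), and the R273H call with library size alone (0.24) and when only R273H and GFP were fitted (0.26). The calls in R248Q and R273H were also lost without any 1 mutant library and with the replicate number as a block. Copies of part of this gene, SLC7A5P1 and SLC7A5P2, had 9 to 30 counts per library against at least 6775 for SLC7A5, and neither was called in any comparison with GFP.

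SLC7A6, the other light chain among the 10, was not called in any mutant with all libraries. It had 76.5 and 90.8 CPM (GFP), 76.0 and 74.8 (R175H), 92.9 and 87.5 (R248Q) and 89.1 and 91.0 (R273H). Both R175H libraries lay just below GFP replicate 1, and the other mutant libraries were at the level of GFP replicate 2. The log2 fold change was -0.15 ± 0.08 in R175H (SE, edgeR adjusted p = 0.27), 0.11 ± 0.08 in R248Q (adjusted p = 0.43) and 0.11 ± 0.08 in R273H (adjusted p = 0.60). Leaving out GFP replicate 1, the R175H value was -0.27 and called lower, and with the length trend removed it was -0.24 and called lower. The R248Q and R273H values were both -0.01 without GFP replicate 1, and both were 0.24 and called higher without GFP replicate 2. SLC7A6OS, the neighbouring gene on the other strand, was not called in any of the 3 comparisons (0.01 ± 0.10, 0.02 ± 0.10 and -0.01 ± 0.10, SE).

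Per kilobase, SLC3A2 was compared with the sum of the 5 of its light chains that passed the filter, SLC7A5, SLC7A6, SLC7A7, SLC7A8 and SLC7A11. The heavy chain amounted to 0.827 and 0.694 of that sum (GFP), 0.764 and 0.812 (R175H), 0.682 and 0.678 (R248Q) and 0.720 and 0.707 (R273H). The GFP libraries spanned all values of the mutants except those of R248Q, which were the lowest. SLC7A5 made up 76.6% to 78.6% of the light chain sum in every library. SLC7A11 made up 3.18% and 3.16% (GFP), 4.60% and 4.51% (R175H), 4.86% and 4.54% (R248Q) and 3.91% and 3.84% (R273H), so its share was lowest in both GFP libraries. These shares describe transcripts and were not tested.

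SLC7A1, the arginine and lysine carrier, rose in all 3 mutants. Its level was 213.4 and 271.4 CPM (GFP), 335.4 and 326.6 (R175H), 328.3 and 312.6 (R248Q) and 329.6 and 306.2 (R273H). The mutant libraries all lay above GFP, and GFP replicate 1 was the lowest library by a wide margin. On the log2 scale the change was 0.45 ± 0.08 in R175H (SE, edgeR adjusted p = 0.0025), 0.40 ± 0.08 in R248Q (adjusted p = 0.0070) and 0.39 ± 0.08 in R273H (adjusted p = 0.029). With GFP replicate 2 as the only control, these fell to 0.29, 0.24 and 0.23, all still called, and with the length trend removed as well to 0.26, 0.15 and 0.22. The R248Q call was lost without R248Q replicate 1 (0.37) or 2 (0.44), and the R273H call without any 1 mutant library (0.34 to 0.44), with the replicate block (0.39), with library size alone (0.38) and when only R273H and GFP were fitted (0.39).

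SLC1A4, the exchanger of serine and other small neutral amino acids, rose in R175H. It had 45.5 and 40.8 CPM (GFP), 72.0 and 65.4 (R175H), 48.0 and 47.7 (R248Q) and 58.9 and 52.0 (R273H). The R175H libraries were the highest, R273H lay between, and R248Q was just above GFP. The log2 fold change was 0.66 ± 0.09 in R175H (SE, edgeR adjusted p = 2.1e-04), 0.15 ± 0.09 in R248Q (adjusted p = 0.35) and 0.36 ± 0.09 in R273H (adjusted p = 0.066). The R273H value was 0.44 without GFP replicate 1 and 0.32 with the length trend removed, called both times. Its relative SLC1A5, the glutamine exchanger, ranged from 392.2 to 398.8 CPM in GFP and from 413.1 to 445.6 in the 6 mutant libraries, with no overlap. SLC1A5 was not called in R175H (0.15 ± 0.05), R248Q (0.08 ± 0.05) or R273H (0.16 ± 0.05, SE), with edgeR adjusted p = 0.072, 0.38 and 0.19. Without GFP replicate 1 the R175H (0.16) and R273H (0.17) values were called, and likewise with the length trend removed (0.15 and 0.17).

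The sodium-coupled glutamine and alanine carriers also rose in R175H. SLC38A2 had 164.3 and 182.3 CPM (GFP), 232.0 and 219.5 (R175H), 202.9 and 193.3 (R248Q) and 193.6 and 195.9 (R273H). All mutant libraries lay above GFP, those of R175H highest. Its log2 fold change was 0.38 ± 0.06 in R175H (SE, edgeR adjusted p = 0.0012), 0.19 ± 0.06 in R248Q (adjusted p = 0.077) and 0.17 ± 0.06 in R273H (adjusted p = 0.26). The R248Q (0.27) and R273H (0.25) values of SLC38A2 were called without GFP replicate 2. Without GFP replicate 1 they were 0.12 and 0.10, and with the length trend removed 0.12 and 0.13, none of them called. SLC38A1 had 265.8 and 325.9 CPM in GFP and 343.2 to 384.1 in the 6 mutant libraries, again with no overlap. SLC38A1 was called higher in R175H (0.31 ± 0.08, edgeR adjusted p = 0.019) and R248Q (0.37 ± 0.08, adjusted p = 0.0086) and was not called in R273H (0.30 ± 0.08, SE, adjusted p = 0.091). Leaving out GFP replicate 1, the SLC38A1 values were 0.17, 0.23 and 0.16, and with the length trend removed 0.18, 0.16 and 0.18, the R273H value being called in the latter and not in the former. Both SLC38A1 calls were lost without either library of the mutant concerned (0.29 and 0.33 in R175H, 0.37 and 0.38 in R248Q), the R175H call also when only R175H and GFP were fitted (0.30), and the R248Q call also with the length trend removed, either with the replicate block (0.16) or without GFP replicate 1 (0.12).

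SLC6A9, the glycine carrier, rose in R175H and R273H. Its level was 68.6 and 80.1 CPM (GFP), 109.8 and 108.9 (R175H), 86.2 and 89.5 (R248Q) and 98.7 and 94.3 (R273H). The groups did not overlap, in the order GFP, R248Q, R273H and R175H. On the log2 scale the change was 0.56 ± 0.08 in R175H (SE, edgeR adjusted p = 2.3e-04), 0.24 ± 0.08 in R248Q (adjusted p = 0.066) and 0.38 ± 0.07 in R273H (adjusted p = 0.021). With GFP replicate 2 as the only control, these were 0.45, 0.13 and 0.27. The R248Q value was called without GFP replicate 2 (0.36) or with the length trend removed (0.26). The R273H call was lost without any 1 mutant library (0.34 to 0.41), with the replicate block (0.38) and when only R273H and GFP were fitted (0.38).

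**Figure D3:**
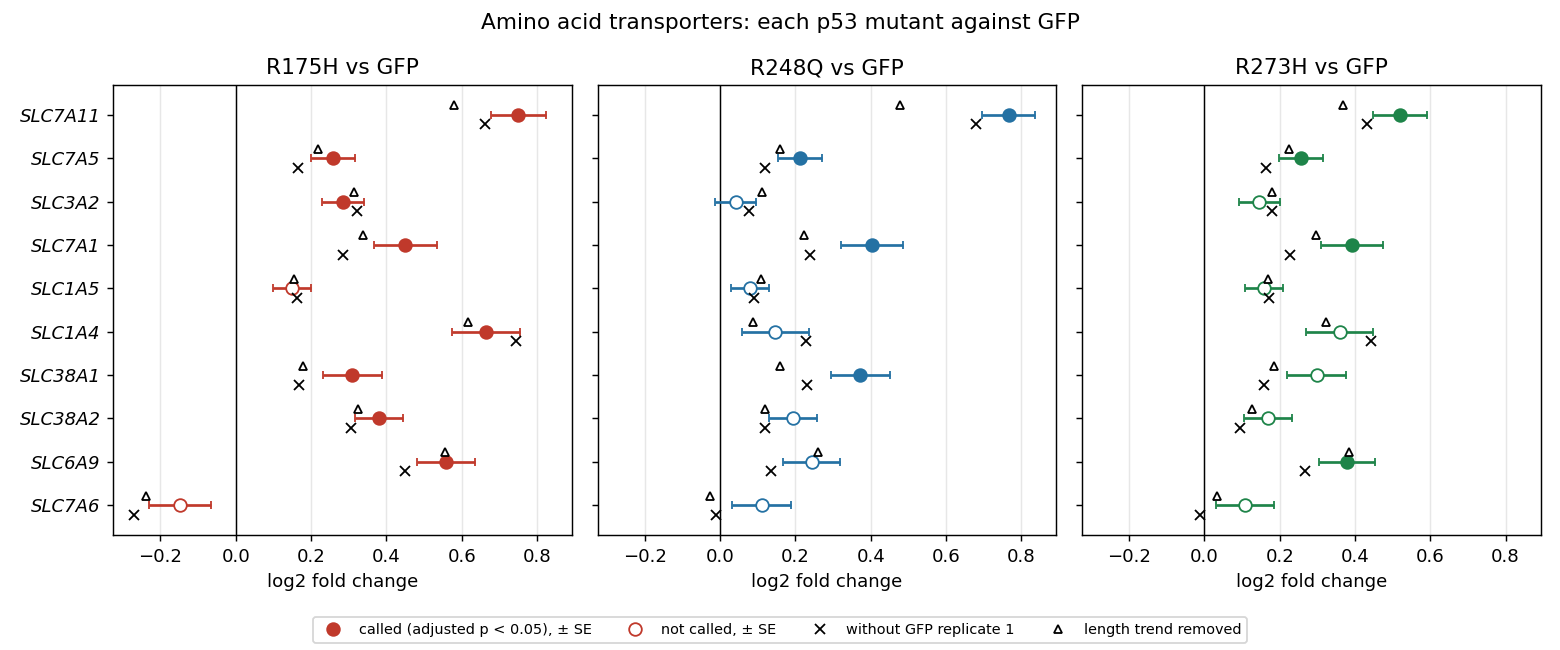
Log2 fold change of each transporter in each mutant against GFP, with bars of 1 SE; filled circles were called, crosses leave out GFP replicate 1 and triangles have the length trend removed. Among the circles SLC7A11 has the largest value in each panel (0.75, 0.77 and 0.52), and SLC7A6 in R175H is the only one below 0 (-0.15). The cross of SLC1A4 exceeds that of SLC7A11 in R175H and R273H. The triangle of SLC7A11 is exceeded by that of SLC1A4 in R175H and that of SLC6A9 in R273H.

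Long transcripts as a class were higher against GFP, so the transporters were set beside genes of like length. For the 788 well-counted genes of 8000 nt or more the median log2 fold change was 0.18 in R175H, 0.30 in R248Q and 0.15 in R273H, with 90th percentiles of 0.48, 0.71 and 0.43. SLC7A11 exceeded the 90th percentile in each mutant (0.75, 0.77 and 0.52), whereas SLC38A1, of 8066 nt, stayed below it (0.31, 0.37 and 0.30). Among 1866 genes of 2500 to 3499 nt the 90th percentiles were 0.25, 0.14 and 0.14, and SLC6A9, of 3130 nt, was above each (0.56, 0.24 and 0.38). SLC1A4, of 4561 nt, was above the 90th percentile of the 1996 genes of 3500 to 4999 nt in R175H (0.66 against 0.27) and R273H (0.36 against 0.16), and below it in R248Q (0.15 against 0.20). Among 1701 genes of 5000 to 7999 nt the 90th percentiles were 0.34, 0.35 and 0.24. SLC7A1 was above each (0.45, 0.40 and 0.39), and SLC7A6 was below each. SLC7A5 was above the 90th percentile of its length class in R248Q and R273H, but not in R175H. SLC38A2 and SLC3A2 were above theirs in R175H and R273H but not in R248Q, and SLC1A5 in R273H only. These positions are descriptions without a test.

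**Figure D4:**
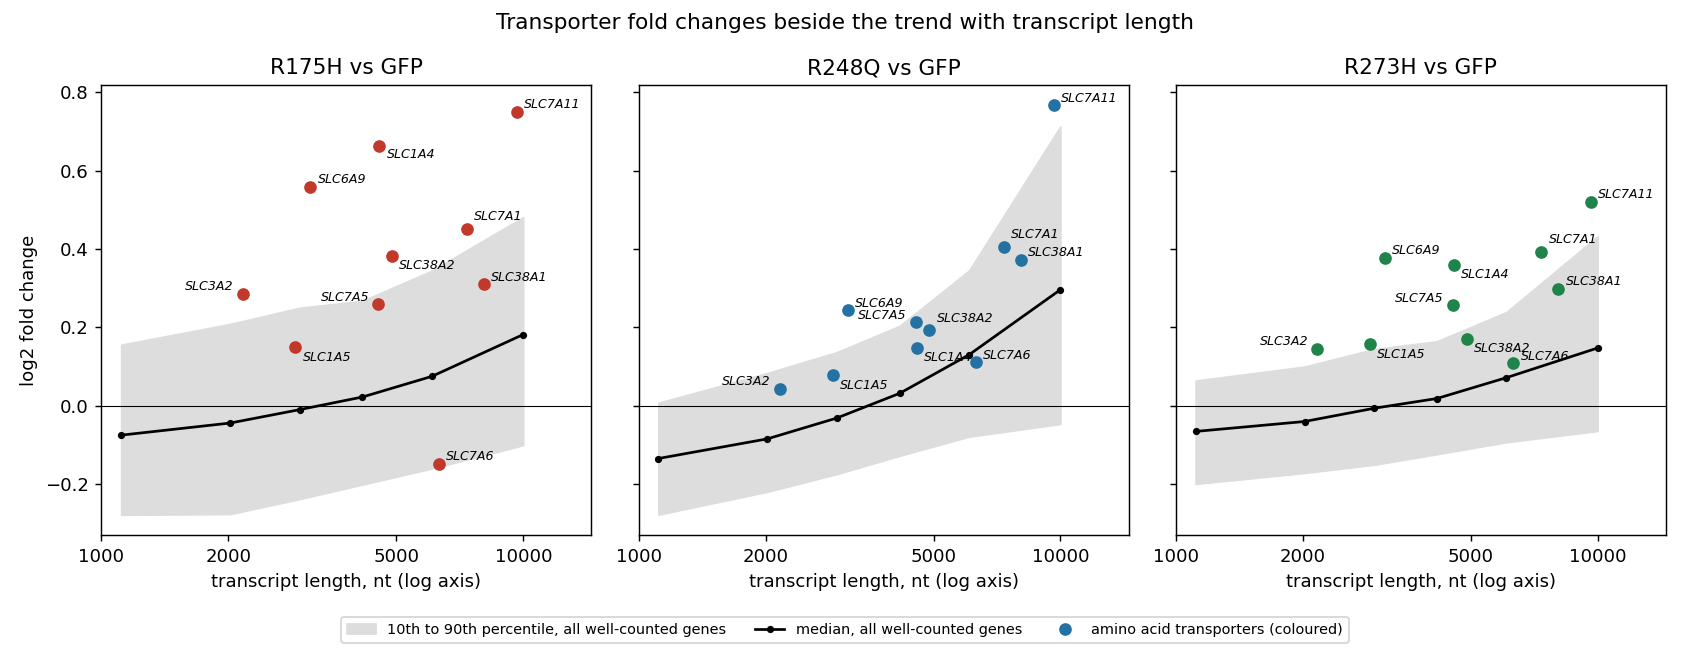
Log2 fold change against transcript length on a log axis for the 10 transporters (coloured points), over the median (line) and the 10th to 90th percentile (grey) of all well-counted genes in 6 length classes. The median rises with length in each mutant, to 0.30 in the longest class in R248Q, and SLC7A11 lies above the grey band in each panel.

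The mutants were then compared with each other, which does not use the GFP level. R248Q, a substitution at a residue that touches DNA, had lower levels than R175H, which disturbs the fold of the domain, for 3 of the 10 transporters and higher levels for none, where 3.95% of all genes tested were called lower and 3.22% higher. These were SLC1A4 with a log2 fold change of -0.52 ± 0.09 (SE, n = 2 per group, edgeR adjusted p = 0.0015), SLC6A9 with -0.31 ± 0.07 (adjusted p = 0.016) and SLC3A2 with -0.24 ± 0.05 (adjusted p = 0.012). SLC1A4 was called under every alternative run. The SLC6A9 call was lost without any 1 library of either group (-0.34 to -0.28), and the SLC3A2 call without R175H replicate 2 (-0.19) or either R248Q library (-0.24 and -0.23). SLC38A2 (-0.19 ± 0.06) and SLC7A6 (0.26 ± 0.08, SE) were not called, but both were called when only these 2 groups were fitted. In that fit 1268 of all genes were called higher and 1305 lower, against 425 and 522 with all libraries. Without GFP replicate 1 the values of SLC38A2 and SLC7A6 were still -0.19 and 0.26.

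SLC7A11 did not differ detectably between R248Q and R175H, with a log2 fold change of 0.02 and a 95% interval of -0.13 to 0.16. For SLC7A5 the interval was -0.17 to 0.08, for SLC7A1 -0.22 to 0.13, for SLC1A5 -0.18 to 0.04 and for SLC38A1 -0.10 to 0.23.

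Between R273H and R175H none of the 10 was called by edgeR (6 at an unadjusted p below 0.05), by DESeq2 or by limma-voom. In that comparison 1.41% of all genes were called higher and 2.22% lower. SLC1A4 (-0.30 ± 0.09), SLC7A11 (-0.23 ± 0.07), SLC38A2 (-0.21 ± 0.06), SLC6A9 (-0.18 ± 0.07) and SLC3A2 (-0.14 ± 0.05) had negative values and SLC7A6 a positive one (0.26 ± 0.08, SE). Their edgeR adjusted p lay between 0.063 for SLC1A4 and 0.21 for SLC6A9. All of these 6 were called when only R273H and R175H were fitted. In that fit 623 of all genes were called higher and 731 lower, against 186 and 293 with all libraries.

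Between R273H and R248Q none of the 10 was called by edgeR (2 at an unadjusted p below 0.05), by limma-voom or by DESeq2. Of all genes, edgeR called 0.00757% higher and 0.144% lower. The log2 fold change was -0.25 ± 0.07 for SLC7A11 and 0.21 ± 0.08 for SLC1A4 (SE), with edgeR adjusted p = 0.26 and 0.54. SLC7A11 was called when only the 2 groups were fitted (-0.25), and had -0.25 without GFP replicate 1 and -0.11 with the length trend removed. With only the 2 groups fitted, 337 of all genes were called higher and 479 lower, against 1 and 19 with all libraries.

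**Figure D5:**
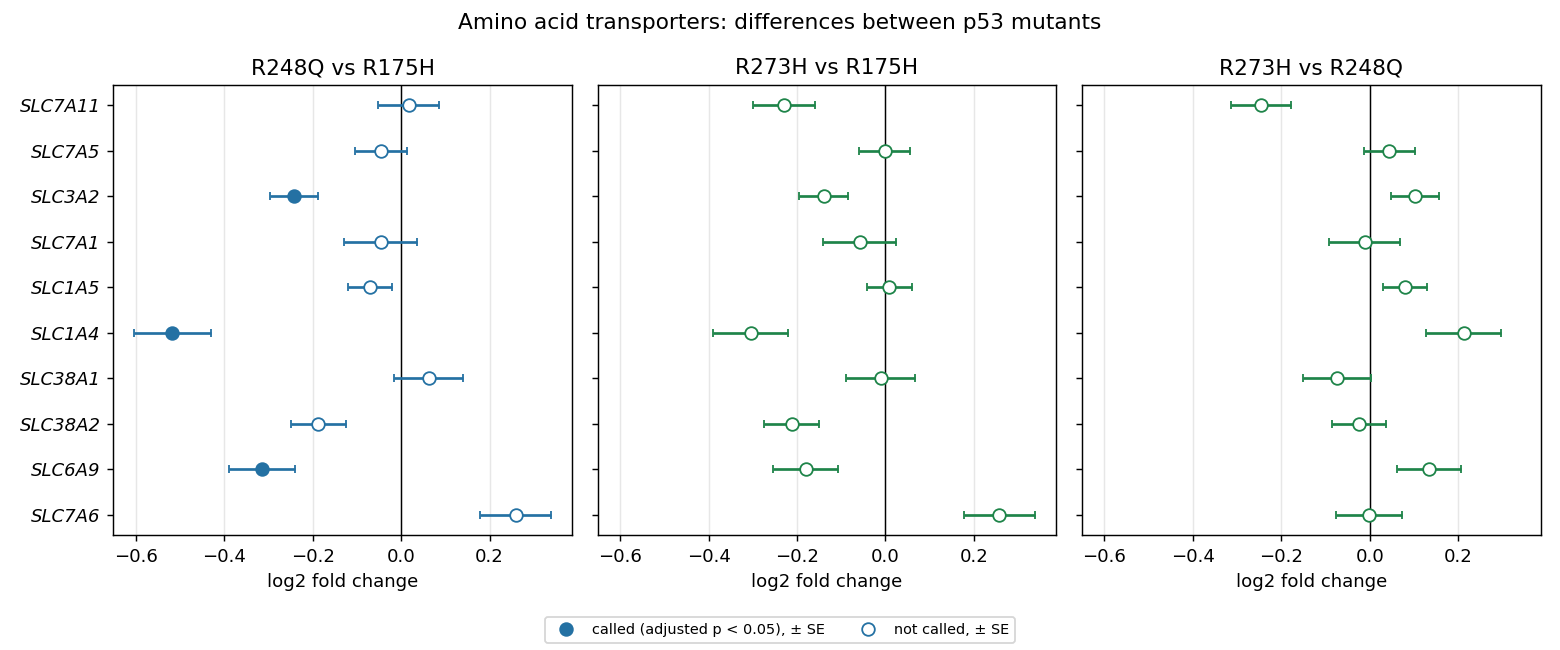
Log2 fold change of each transporter between pairs of mutants, first named minus second named, with bars of 1 SE; filled circles were called. SLC1A4, SLC6A9 and SLC3A2 are lower in R248Q than in R175H (-0.52, -0.31 and -0.24), and no other value was called.

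The likeness of the transporters' log2 CPM was described over the 8 libraries. SLC7A1 was most like SLC7A5 (Pearson r = 0.98) and SLC38A1 (0.97), and SLC3A2 was most like SLC1A4 (0.93). SLC6A9 was most like SLC38A2 (0.92), with 0.90 for SLC7A5 and 0.87 for SLC1A4. Among the transporters SLC7A11 was most like SLC7A1 (0.92). SLC7A6 had r = -0.60 with SLC3A2 and -0.57 with SLC1A4. Among 9674 other genes with a mean of at least 10 CPM, those most like SLC7A11 were CHD2 (r = 0.99), MTR (0.99), PLD2 (0.99), ZSWIM6 (0.98) and HIVEP1 (0.98). CHD2 encodes a chromatin remodeller and MTR methionine synthase. Their log2 fold changes in R175H, R248Q and R273H were 0.61, 0.61 and 0.42 for CHD2 and 0.51, 0.56 and 0.33 for MTR. The points of these correlations share 4 groups, depth and the length trend, and they are given as descriptions. CHD2 and MTR have transcripts of 9363 and 10529 nt.

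Other amino acid carriers were taken as a second list. Of 42 further transporters, mostly of the plasma membrane with a few of the lysosome, 21 passed the filter, and 1 was called higher and 1 lower in R175H, and the median of the 21 was 0.03 (log2). Of all genes tested 6.39% were called higher and 4.59% lower, so these counts are near the share over all genes. SLC43A1 (LAT3, large neutral amino acids) rose in R175H from 33.9 to 43.9 CPM (0.37 ± 0.09, edgeR adjusted p = 0.020), and SLC6A6, the taurine carrier, fell from 19.2 to 13.5 CPM (-0.49 ± 0.13, SE, adjusted p = 0.025). By edgeR none of the 21 was called in R248Q or R273H (4 in each at an unadjusted p below 0.05, 0 by DESeq2, and 1 and 0 by limma-voom), and 1 was called higher in R273H with the length trend removed. DESeq2 called 0 of the 21 in R175H as well. Of 9 tested carriers of the mitochondrial inner membrane 2 were lower in R175H and none higher (median -0.18): SLC25A29, which carries basic amino acids (-0.45 ± 0.12), and SLC25A44, which carries branched-chain amino acids (-0.33 ± 0.09, SE). With the length trend removed, 3 were lower and 1 higher in R175H, where 1131 of all genes were called lower and 999 higher. By edgeR none of the 9 was called in R248Q (2 at an unadjusted p below 0.05) or R273H (0), nor by DESeq2 or limma-voom, and DESeq2 called 0 of them in R175H.

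Some genes of the pathways that use or report the transported amino acids were called against GFP. Of all genes tested, 6.39% were called higher and 4.59% lower in R175H, and 0.757% higher in R273H. A list of 12 genes held those of glutathione synthesis and use, and also TXNRD1, AIFM2 and FTH1. Of the 12, 1 was higher and 1 lower in R175H (median -0.09) and 1 was higher in R273H. The R175H counts of the 12 are near the shares over all genes. In R248Q edgeR called none (2 at an unadjusted p below 0.05), nor did DESeq2 or limma-voom. CHAC1, which breaks down glutathione, rose in R175H (0.78 ± 0.09) and R273H (0.52 ± 0.08), and the peroxidase GPX1 was lower in R175H (-0.25 ± 0.08, SE), a call lost without GFP replicate 1 (-0.10). A further list of 17 genes held regulators of the integrated stress response, the pathway that makes ATF4, and also NFE2L2 (NRF2), KEAP1 and MYC. Of the 17, 7 were higher and 1 lower in R175H (median 0.18), and 1, TRIB3, was higher in R273H (0.32 ± 0.07, SE). In R273H DESeq2 called 0 of the 17, while 3 were higher without GFP replicate 1 and 4 with the length trend removed. In R248Q edgeR and DESeq2 called none and limma-voom 1 (3 at an unadjusted p below 0.05 in edgeR). In that mutant 2 were higher without GFP replicate 1, and 1 was higher and 2 lower with the length trend removed. In R175H TRIB3 rose by 0.77 ± 0.07, DDIT3, which encodes CHOP, by 0.81 ± 0.13 and ATF5 by 0.38 ± 0.07 (SE). EIF2S1, the translation factor subunit phosphorylated in this response, fell by 0.33 in R175H (log2). TRIB3 was not called in R248Q against GFP (0.01). Its level was called lower than in R175H in both R248Q (-0.76) and R273H (-0.45). Of all genes tested, 3.95% were called lower in R248Q than in R175H, and 2.22% lower in R273H than in R175H. Compared directly, 6 of the 17 were lower in R248Q than in R175H and 4 in R273H than in R175H, with none higher in either. With the length trend removed, 8 of the 17 were lower and 0 higher in R248Q than in R175H, and 6 lower and 1 higher in R273H. Over all genes, that run called 785 lower and 768 higher in R248Q than in R175H, and 522 lower and 549 higher in R273H.

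Of 27 genes that report amino acid supply to mTORC1, 5 were higher in R175H (median 0.04), 4 higher and 1 lower in R248Q (median -0.06) and 1 higher in R273H (median 0.00). Over all genes, 6.39%, 4.88% and 0.757% were called higher, and 1.44% lower in R248Q. DESeq2 called 2, 3 and 0 of the 27. Without GFP replicate 1, 3 were higher in R175H, 2 higher and 0 lower in R248Q, and 0 in R273H. FLCN, which activates the RagC and RagD GTPases, rose in R175H from 44.6 to 65.9 CPM (0.56 ± 0.08, edgeR adjusted p = 2.5e-04), and the leucine sensor SESN2 rose in all 3 (0.64 ± 0.10, 0.38 ± 0.10 and 0.43 ± 0.10, SE). SESN3 was higher in R175H (0.33 ± 0.09) and R248Q (0.40 ± 0.09), and RPTOR, the scaffold of mTORC1, in R248Q (0.36 ± 0.08, SE). Without GFP replicate 1 the SESN2 calls in R248Q (0.22) and R273H (0.27) and the SESN3 call in R175H (0.26) were lost, and with the length trend removed both SESN3 calls were lost (0.16 and 0.11).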

How the data were processed

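The values are raw read counts per gene symbol, deposited by the authors as 1 table with a column per library. Per the submitters' processing notes, bcl2fastq and STAR 2.5 were used with hg19; no source used here gives the counting step, annotation, filters or strand setting. Total counts were 6800463 to 11788035 per library, which sets the precision of low genes.

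Counts were fitted in R 4.3.3 with edgeR 4.0.16: filterByExpr (minimum count 10, minimum total 15), TMM scaling, one mean for each group in a quasi-likelihood fit of all 8 libraries and 4 residual degrees of freedom, and Benjamini-Hochberg adjustment over 13213 genes, with calls below 0.05. SE was taken as the size of the log2 fold change over the root of F, SD and CPM use TMM-normalised libraries, and 95% intervals use the moderated degrees of freedom. Same-numbered replicates did not deviate together (correlations -0.24 to 0.07 between groups), so they were not paired. The procedure was also run on simulated counts with the same spread in all libraries and no length trend. That run therefore does not cover the uneven GFP libraries.

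Alternatives were limma-voom 3.58.1, DESeq2 1.42.0, scaling by DESeq2 size factors or by library size, a filter of 1 count, leaving out each library, fitting only the groups compared, a block for the replicate number, and a transcript length offset (loess, span 0.3, genes above a log2 CPM of 3, GENCODE 29 lengths matched for 93.4% of tested genes), alone and with the block. The offset without GFP replicate 1 was chosen after seeing the data. The members, lists and alternatives were chosen with earlier results of these data known. Named genes were the 10 members, copies or neighbours of them, up to 4 genes called against GFP with the lowest p from each list, and the 5 genes most like SLC7A11. From the marker lists this rule also takes KRT8, TWIST1, COL1A1, VIM and SPARC. The level of the overexpressed gene is not reported here.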

Additional observations from a re-analysis of the deposited data

How the results depend on the processing

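No member's call changed sign under any alternative run. The number of the 10 transporters called, main value first, was 8 in R175H against GFP (5 with only the groups compared), 4 in R248Q (2 with the length trend removed and without GFP replicate 1), and 4 in R273H. The last was 2 with library size alone, 0 with only the groups compared, 1 with a replicate block, 8 with the length trend removed, 7 with the length trend removed and the replicate block, and 8 with the length trend removed and without GFP replicate 1. Over all genes, 844 higher and 607 lower in R175H against GFP became 351 and 187 with only the groups compared. In R273H, 100 and 33 became 1 and 5, and 188 and 113 with the length trend removed. Between R248Q and R175H 3 transporters were called, and 5 with only the groups compared and with the length trend removed, with or without the replicate block. Over all genes, 425 higher and 522 lower became 1268 and 1305 with only the groups compared, and 768 and 785 with the length trend removed. Between R273H and R175H 0 transporters were called, and 3 without a filter, 6 with only the groups compared, 5 with the length trend removed and 4 with the replicate block as well. Over all genes, 186 higher and 293 lower became 320 and 439 without a filter, and 623 and 731 with only the groups compared. They became 549 and 522 with the length trend removed, and 479 and 458 with the block as well. Between R273H and R248Q 0 transporters were called, and 3 with only the groups compared, while 1 higher and 19 lower over all genes became 337 and 479. Calls over all genes also moved when a library was left out, so transporter counts from those runs cannot be set against the shares of the main fit. The cause was not tested. Leaving out 1 library in turn gave 5 to 10 in R175H, 1 to 7 in R248Q and 0 to 9 in R273H against GFP, and 1 to 5, 0 to 6 and 0 to 1 in the 3 pairs of mutants. With the replicate block alone the other counts were 8 in R175H, 3 in R248Q, 3 between R248Q and R175H, and 0 in both comparisons of R273H with a mutant. At the lowest total, 6800463 counts, 3 counts are 0.441 CPM, far below any member.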
